A study of Mus musculus with 12 samples.

Results

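The genes described here encode the substrate adaptors of cullin-RING ubiquitin ligases, taken as the protein-coding genes of the deposited tables whose symbols start with Klhl, Kbtbd, Fbxo, Fbxl or Fbxw followed by a number. There were 62 of them among the 10289 genes listed in at least 1 of 3 tables: 17 Klhl, 6 Kbtbd, 21 Fbxo, 12 Fbxl and 6 Fbxw genes. The mouse annotation (GENCODE M21, genome build GRCm38) holds 122 protein-coding genes with such symbols, so 60 were listed nowhere, among them every annotated gene of the Fbxw cluster on chromosome 9.

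C2C12 is a mouse myoblast line that divides in growth medium (GM) and fuses into myotubes once serum is lowered. RNA was sequenced from 4 groups of 2 libraries: cells overexpressing GFP in GM, cells overexpressing GFP after 4 days of differentiation (D4), cells overexpressing METTL3 in GM and cells overexpressing METTL14 in GM. METTL3 and METTL14 form the methyltransferase that places N6-methyladenosine on mRNA. All lines, the controls included, carried a lentiviral CMV-driven transgene and were stable lines selected with puromycin. For the METTL14 libraries the titles give day 0 and a time point field gives day 4, and day 0 was used. Nothing in the labels says that the 2 libraries of a group came from separate cultures, so p-values may measure technical spread alone. The tables hold, for genes at an adjusted p of 0.05 or less, the authors' mean normalized count over the libraries, the log2 fold change, its standard error (SE) and the adjusted p, and no value per library. A gene that is not listed therefore has no value here, and no depth per library or overlap of replicates could be shown.

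Cullin-RING ligases are built on a cullin scaffold that carries a RING protein, RBX1, and, at its other end, an exchangeable adaptor that picks the protein to be ubiquitinated. Kelch proteins of the Klhl and Kbtbd families bind CUL3 through a BTB domain and hold substrates with their kelch repeats. F-box proteins bind CUL1 through SKP1, and are named for what they hold substrates with: leucine-rich repeats (Fbxl), WD40 repeats (Fbxw) or other domains (Fbxo). In skeletal muscle, adaptors of both kinds are known for the assembly and stability of sarcomere proteins and for protein loss in atrophy.

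The labels were checked first. Mettl3 was 5.07 ± 0.13 (SE) higher on the log2 scale in the METTL3 line and Mettl14 was 4.35 ± 0.09 higher in the METTL14 line. Reads of the transgene and of the endogenous gene cannot be told apart. At D4 the myogenic factor Myog had a log2 fold change of 7.93 over GM and the proliferation marker Mki67 one of -3.83. Neither Myog nor Mki67 was listed in the METTL3 or the METTL14 table.

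The first comparison, D4 against GM in the GFP line, asked which adaptors changed as myoblasts differentiated. Of the 122 annotated adaptor genes 59 (48.4%) were listed: 39 rose and 20 fell at D4. Across the 18869 genes tested 52.1% were listed, 26.7% higher and 25.3% lower. On the same base as the adaptors, 40.2% of the 21951 annotated protein-coding genes were listed, 19.7% higher and 20.4% lower, against 32.0% and 16.4% of the adaptor genes. Of the listed adaptors 66.1% were higher, and of all listed genes 51.3%. Their median log2 fold change was 0.43, beside 0.31 for all listed genes and -0.29 for the protein-coding ones. These shares are descriptions without a test.

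Among listed genes, the Klhl family had the largest share of higher ones (82.4%), and of annotated genes the Fbxl family (44.4%, against 38.9% for Klhl). Of the 36 Klhl annotated genes 14 were higher and 3 lower, with a median log2 fold change of 1.59 over the 17 listed. The Kbtbd family had 2 higher and 3 lower of 9, the Fbxo family 12 and 8 of 36, the Fbxl family 8 and 3 of 18, and the Fbxw family 3 and 3 of 23. A change of 2-fold or more was seen in 27 of the 59 listed adaptors (45.8%), 20 of them higher and 7 lower. Of all listed genes 55.5% changed by 2-fold or more, so the adaptor share was the smaller. Of the genes past 2-fold, 74.1% were higher among the adaptors and 57.8% among all listed genes.

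**Figure D1:**
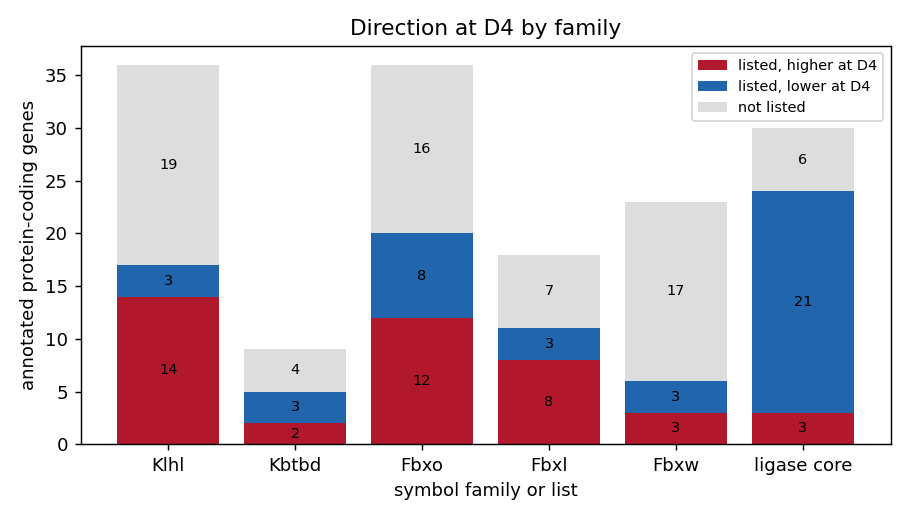
Number of annotated protein-coding genes (vertical axis) in each adaptor family and in the list of ligase core genes, split into those listed higher at D4, listed lower at D4 and not listed. The Klhl bar holds 14 higher and 3 lower genes, whereas the ligase core bar holds 3 higher and 21 lower.

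The largest rises were those of kelch genes that muscle is known for. Klhl41 (chr2:69670120-69684230, plus strand) encodes a sarcomere-associated protein that stabilises nebulin and is mutated in nemaline myopathy. It was 247-fold higher at D4 (95% interval 185 to 331, log2 fold change 7.95 ± 0.22 SE, adjusted p = 1.11e-295), which ranked 15 among the 9823 listed genes by the size of the Wald statistic. Klhl40 (chr9:121777607-121783818, plus strand), which stabilises nebulin and leiomodin 3 and is also a nemaline myopathy gene, was 170-fold higher (89.6 to 324, adjusted p = 8.70e-54). The partners of these proteins rose as well, with log2 fold changes of 11.32 for Neb and 8.03 for Lmod3.

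Klhl31 (chr9:77636500-77660127, plus strand), a muscle kelch gene, was 45.1-fold higher (30.3 to 67.2, adjusted p = 4.75e-77). Klhl33 (chr14:50888582-50897507, minus strand) was 16.0-fold higher (10.0 to 25.4) and Klhl30 (chr1:91351016-91362416, plus strand) 4.62-fold higher (3.02 to 7.07). Of the 9 kelch genes on the muscle list, these 5 were higher and none was listed lower. Klhl34, Klhl38, Kbtbd12 and Kbtbd13 were not listed at D4. Klhl41 and Klhl30 also had the highest mean counts per kilobase of exon among the listed adaptors, 1368 and 994, ahead of Fbxo11 at 398.

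The promoters of the strongly risen muscle adaptors are shown so that the letters that muscle transcription factors are known to bind can be seen. The sequences are from RefSeq (GRCm38.p6) and run over the 250 bases before the RefSeq start, in the direction of the gene. For Klhl33 that start lies inside the gene interval given above, which is from GENCODE. Capitals mark the E-box CAGCTG, of the kind bound by MyoD and myogenin, and the motif of MEF2, an A/T-rich sequence.
Klhl41 promoter (chr2:69669870-69670119, plus strand): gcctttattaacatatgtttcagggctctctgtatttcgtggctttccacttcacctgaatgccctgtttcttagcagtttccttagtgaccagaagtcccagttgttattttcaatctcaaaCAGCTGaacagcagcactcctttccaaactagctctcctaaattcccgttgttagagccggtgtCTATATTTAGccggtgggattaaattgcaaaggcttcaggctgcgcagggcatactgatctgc
Klhl40 promoter (chr9:121777357-121777606, plus strand): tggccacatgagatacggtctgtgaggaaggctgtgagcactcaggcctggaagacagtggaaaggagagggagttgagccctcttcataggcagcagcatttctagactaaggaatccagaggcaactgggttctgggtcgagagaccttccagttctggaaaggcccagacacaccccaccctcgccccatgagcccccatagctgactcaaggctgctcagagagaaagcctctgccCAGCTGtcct
Klhl33 promoter (chr14:50897484-50897733, minus strand): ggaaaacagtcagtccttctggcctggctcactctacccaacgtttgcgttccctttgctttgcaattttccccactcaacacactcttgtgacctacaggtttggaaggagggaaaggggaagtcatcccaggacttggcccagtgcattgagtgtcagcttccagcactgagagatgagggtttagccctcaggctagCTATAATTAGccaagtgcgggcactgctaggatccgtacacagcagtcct
Fbxo40 promoter (chr16:36990468-36990717, minus strand): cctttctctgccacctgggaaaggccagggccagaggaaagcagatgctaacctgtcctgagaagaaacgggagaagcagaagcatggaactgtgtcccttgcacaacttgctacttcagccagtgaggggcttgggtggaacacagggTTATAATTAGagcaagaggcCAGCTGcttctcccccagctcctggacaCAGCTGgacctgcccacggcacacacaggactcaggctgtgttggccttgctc

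The MEF2 motif lay 54 to 63 bases before the start of Klhl41, 41 to 50 bases before that of Klhl33 and 92 to 101 bases before that of Fbxo40. Windows of 250 bases before to 50 after the start were searched on both strands, and 95 of the 122 annotated adaptor genes had one. MEF2 was found for 3 of the 29 adaptors higher at D4 that had a window (10.3%), for none of the 16 lower ones, for 2 of the 50 not listed (4.0%), and for 3.70% of all 27025 genes with a window. CAGCTG, which is one form of the general E-box CANNTG, was found for 17.2% of the higher, 18.8% of the lower and 48.0% of the unlisted adaptors, and for 18.3% of all genes, so it was not commoner in the adaptors that rose. CANNTG was found for 62.1%, 75.0% and 78.0%, and for 75.0% of all genes. For the 15 adaptors with a window that were higher by 2-fold or more, the shares were 20.0% for MEF2, 33.3% for CAGCTG and 86.7% for CANNTG. None of these shares was tested. GTAAACA, a FoxO motif, was in no adaptor window and was found for 4.05% of all genes. Fbxo32, Klhl24 and Klhl30 were among the adaptors without a window, so they were searched for none of these motifs. A gene with several windows was counted once, where any of them matched. The window of Fbxl22 held neither MEF2 nor CAGCTG, and that of Klhl31 held none of the motifs searched. A match is a run of letters, not a shown binding site.

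Most of the muscle F-box genes rose at D4 too. Fbxo32 (atrogin-1, chr15:58175879-58214932, minus strand), the atrophy ligase of muscle, was 3.63-fold higher (2.89 to 4.54, adjusted p = 5.42e-28). Fbxo40 (chr16:36963460-36990467, minus strand), which is known to target the insulin receptor substrate IRS1, was 43.9-fold higher, with a wide interval of 19.2 to 100.1 and a mean count of 34.5. Fbxl22 (chr9:66508459-66514593, minus strand), a sarcomere-associated F-box gene, was 27.3-fold higher (log2 fold change 4.77 ± 0.44 SE).

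Fbxo31, known to target cyclin D1, was 1.39-fold higher (adjusted p = 0.00489). Fbxo21 was 1.38-fold lower (adjusted p = 0.00291), and Fbxo30, an atrophy-related F-box gene, was not listed. Of the 6 genes on this list 4 were higher, 1 was lower and 1 was not listed. Among muscle ligases of other families, the RING gene Trim63 (MuRF1) had a log2 fold change of 8.89 ± 1.45, Trim54 of 5.14, Trim55 of 2.11, and the SOCS-box genes Asb2 of 5.16 and Asb5 of 0.79.

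Several adaptors with broad expression also rose. Klhl24, which limits intermediate filament proteins in skin and heart, was 5.64-fold higher (4.59 to 6.93), and Fbxl20, known from synaptic vesicle release, 5.38-fold higher (4.36 to 6.64). Fbxl2, which is anchored to membranes by a lipid, was 2.90-fold higher, Klhl28 3.01-fold and Klhl5 2.46-fold.

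**Figure D2:**
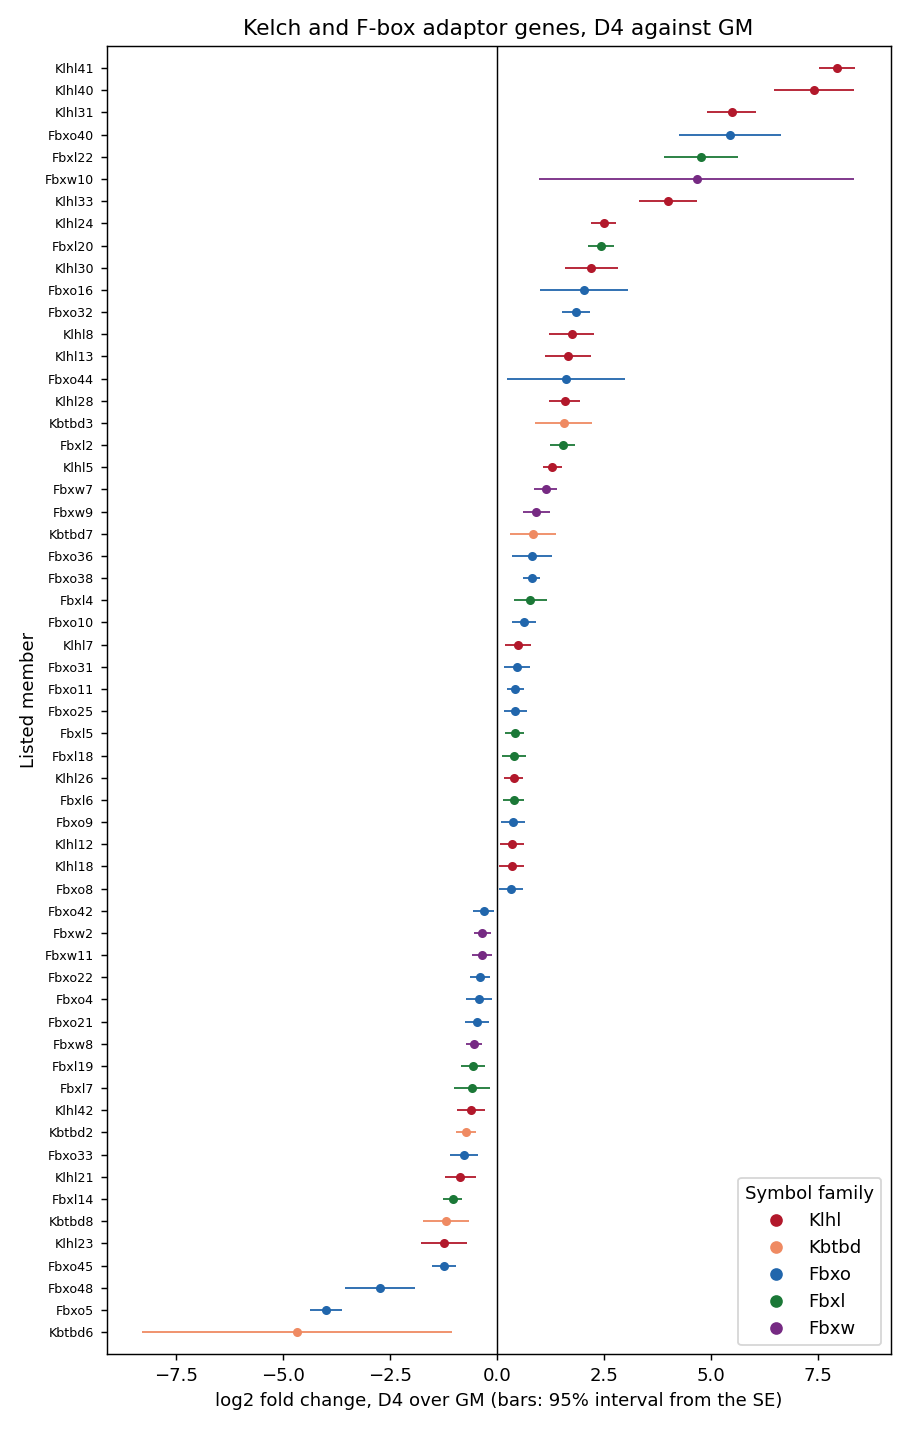
Log2 fold change of D4 over GM (horizontal axis) for 58 of the 59 listed adaptor genes, with bars for the 95% interval from the SE and colours for the symbol families. Klhl41 and Klhl40 lie at 7.95 and 7.41, Fbxo5 at -3.99, and Kbtbd6 and Fbxw10 have intervals that run over more than 7 log2 units.

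Cell-cycle F-box genes moved in both directions. Fbxo5 (EMI1, chr10:5799160-5805600, minus strand), the inhibitor of the anaphase-promoting complex in S and G2 phase, was 15.9-fold lower at D4 (95% interval 12.2 to 20.6, log2 fold change -3.99 ± 0.19 SE, adjusted p = 8.92e-94). It was the adaptor with the lowest Wald statistic and ranked 268 of the listed genes by its size. Fbxw7, which targets cyclin E and Myc, was 2.20-fold higher (1.84 to 2.64), and Fbxo43 (EMI2) and Fbxl12 were not listed. The F-box genes Ccnf (cyclin F) and Skp2, named under other symbols, had log2 fold changes of -3.90 and -2.55, beside the -3.83 of Mki67.

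The start of Fbxo5 is shown because it holds TTTGAA, the letters of the cell cycle homology region (CHR). That element is known to mute genes outside late cell cycle phases. The match lies on the opposite strand, at bases 4 to 9 from the RefSeq start, and is in capitals in these 10 bases before and 20 after it. This start lies inside the GENCODE gene interval given above, so the position depends on which start is used.
Fbxo5 start (chr10:5805446-5805475, minus strand, GRCm38.p6, RefSeq): tttgggcaccaaaTTCAAAgattttaaaag
The CHR letters were found for 6 of the 16 lower adaptors that had a window (Fbxl14, Fbxl19, Fbxo48, Fbxo5, Kbtbd2 and Klhl23), for 4 of the 29 higher ones, for 4 of the 50 not listed, and for 20.2% of all genes. These counts were not tested, and a match does not show a working CHR.

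Other falls were smaller, apart from that of Kbtbd6, which had few reads. Fbxo48 was 6.64-fold lower (3.74 to 11.8) at a mean count of 56.3. Fbxo45, an adaptor known from the nervous system, was 2.36-fold lower, Klhl23 2.34-fold, Kbtbd8, known from neural crest specification, 2.28-fold, and Fbxl14, which targets Snail, 2.04-fold. Below 2-fold were Klhl21, a mitotic adaptor for Aurora B, at 1.81-fold lower, Fbxo33 at 1.70-fold, Kbtbd2, which limits the PI3-kinase subunit p85 alpha, at 1.64-fold, Klhl42 at 1.52-fold, Fbxl19 at 1.47-fold and Fbxw8, a partner of CUL7, at 1.45-fold.

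The 28 listed adaptors not named by the rule for genes comprised 21 higher and 7 lower ones. Without Fbxw10 and Kbtbd6, which had few reads, they ran from 0.33 to 2.03 among the higher and from -0.59 to -0.31 among the lower, and Fbxo16 (2.03), Klhl8 (1.75), Klhl13 (1.67), Fbxo44 (1.61) and Kbtbd3 (1.57) led them.

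Some adaptors lie close together on a chromosome. Klhl41 and Klhl23 are 137.7 kb apart on chromosome 2, on the same strand, and had log2 fold changes of 7.95 and -1.23. Fbxo32 and Klhl38 are 99.6 kb apart on chromosome 15, and Klhl38 was not listed. Fbxo21 and Fbxw8, 54.8 kb apart on chromosome 5, were both lower (-0.46 and -0.53).

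Low counts limit some of these values. The SE was above 1 for 2 adaptors, Kbtbd6 (log2 fold change -4.67 ± 1.85 at a mean count of 3.15) and Fbxw10 (4.67 ± 1.87 at 3.07), and the median SE was 0.16. Kbtbd6 also shares 24.7% of its 50-base stretches with its neighbour Kbtbd7 (log2 fold change 0.84), so reads could be split between the pair. Stretches shared on either strand made up 31.1% of Fbxw8 (with Gm9754), 20.0% of Klhl40 (with Gm47108), 19.8% of Klhl21 (mainly with Gm9768) and 13.4% of Fbxo22 (mainly with Nrg4). They made up 1% or less of 41 of the 62 adaptors. The exons of Fbxw8, Klhl40, Klhl21 and Fbxo22 overlap these same genes on the opposite strand, by 33.4%, 21.6%, 20.5% and 15.4% of their length. These overlaps are thus not a limit separate from the shared stretches. The exons of Fbxl2, Fbxl22 and Fbxw9 overlap genes on the opposite strand by 11.2%, 8.1% and 6.4%. Whether the counting used strand is not given in the sources used here.

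**Figure D3:**
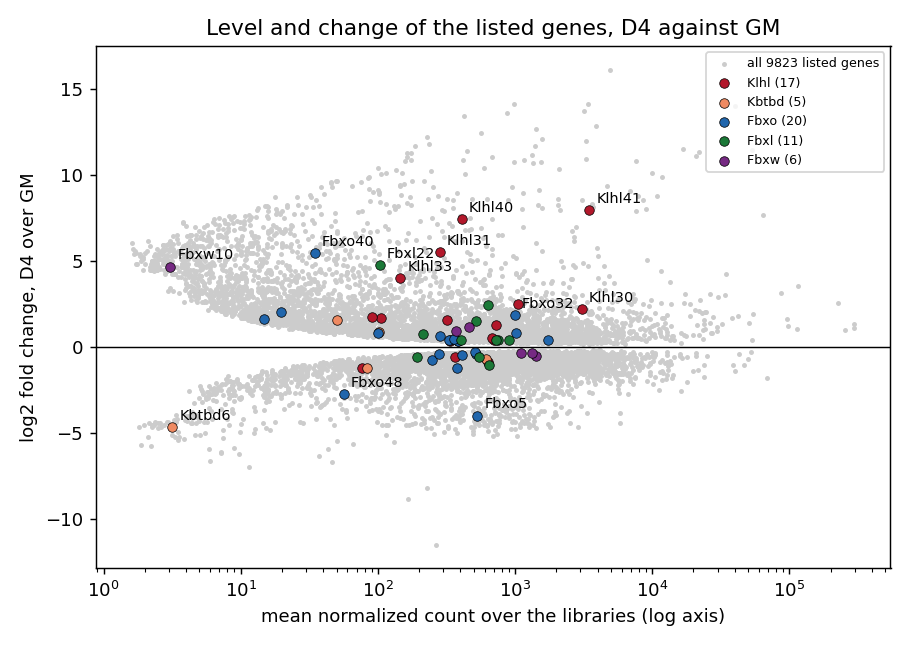
Mean normalized count over the libraries (horizontal, log axis) against log2 fold change of D4 over GM (vertical) for all 9823 listed genes in grey and the adaptors in colour. Klhl41 and Klhl30 stand at mean counts of 3459 and 3071, whereas Kbtbd6 and Fbxw10 stand near 3.

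Most genes of the ligase core were lower at D4. Of 30 annotated core genes (cullins, SKP1, RBX1, the NEDD8 pathway, the COP9 signalosome, CAND proteins and partner E2 enzymes) 24 were listed at D4, 21 lower and 3 higher, with a median log2 fold change of -0.59. Across all genes tested 52.1% were listed and 25.3% were lower. Of annotated protein-coding genes these shares were 40.2% and 20.4%, and the difference from the core genes was not tested. The falls were modest: Cul3, the scaffold of the kelch adaptors, had a log2 fold change of -0.54 ± 0.10, Skp1a, the link of the F-box proteins, of -0.44 ± 0.10, and Rbx1 of -0.88 ± 0.11. Cops2, a signalosome subunit, had the lowest value at -0.99. Cul1 was not listed. The member that rose furthest was Cand2, the muscle-enriched form of the adaptor exchange factor, at 2.74 ± 0.15, whereas Cand1 was at -0.65.

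In bulk RNA, fewer cells of a type and less RNA per cell cannot be told apart. The D4 changes above stand beside the large changes of Myog and Mki67, whose part in them was not tested.

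The second comparison asked what METTL3 overexpression did to adaptors in GM. Of the 122 annotated adaptor genes 10 (8.20%) were listed, 8 lower and 2 higher. Across the 13932 genes tested 12.6% were listed, 5.89% higher and 6.70% lower, and of annotated protein-coding genes 7.81%, so the share of adaptors listed was close to that of annotated protein-coding genes. The median log2 fold change of the 10 was -1.06, beside -0.30 for all 1754 listed genes.

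Of the 9 kelch genes on the muscle list 4 were lower in the METTL3 line and none was listed higher. Klhl30 was 2.61-fold lower (log2 fold change -1.38 ± 0.32 SE, adjusted p = 0.000248) and Klhl31 3.02-fold lower (-1.60 ± 0.52, adjusted p = 0.0224). Kbtbd12 was 3.02-fold lower (-1.59 ± 0.41, adjusted p = 0.00187) and Klhl41 1.88-fold lower (-0.91 ± 0.33, adjusted p = 0.0489). Klhl40 and Klhl33 were not listed. Klhl41 stood just inside the limit.

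Among muscle F-box genes, Fbxo32 changed by -0.59 ± 0.18 (SE) on the log2 scale, at an adjusted p of 0.0102. Fbxo40 had a log2 fold change of -4.50 ± 1.56 (adjusted p = 0.0352), with an interval from -7.57 to -1.44, so its size is poorly known. Its mean count of 34.5 is over all libraries, including those of D4, where Fbxo40 was 43.9-fold higher than in GFP cells in GM. The GFP level in GM therefore lay well below 34.5, so this is a fall from few reads. Trim55, a RING ligase of the sarcomere, had a log2 fold change of -1.24, while Trim63, Trim54, Asb2 and Asb5 were not listed.

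Outside the muscle lists, Fbxl13 was 2.31-fold lower (adjusted p = 0.0121) at a mean count of 46.4, and Klhl24 was 1.39-fold lower (adjusted p = 0.0319). The 2 that were higher changed little: Fbxw9 was 1.53-fold (1.23 to 1.90, adjusted p = 0.00165) and Klhl26 1.26-fold higher (1.08 to 1.47, adjusted p = 0.0289). Of the core genes 5 of 30 were listed, beside 12.6% of all genes tested and 7.81% of annotated protein-coding genes. Cand2 was higher (0.49), and Ube2d1, an E2 enzyme, was lowest at -0.82.

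Because the D4 and METTL3 comparisons share the GFP libraries in GM, their values are given side by side and not correlated. Klhl41 had log2 fold changes of 7.95 at D4 and -0.91 in the METTL3 line, Klhl31 of 5.50 and -1.60, Klhl30 of 2.21 and -1.38, and Klhl24 of 2.50 and -0.47. Fbxo32 had 1.86 and -0.59, and Fbxo40 had 5.45 and -4.50. The size of the D4 rise did not order the METTL3 values: Klhl30 rose less at D4 than Klhl41 and stood lower in the METTL3 line. Fbxw9 (0.93 and 0.61) and Klhl26 (0.40 and 0.34) were higher in both. Noise in the shared GFP libraries moves both values of a gene the same way, so these equal signs are not independent. Kbtbd12 and Fbxl13 were listed in the METTL3 table and not at D4.

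**Figure D4:**
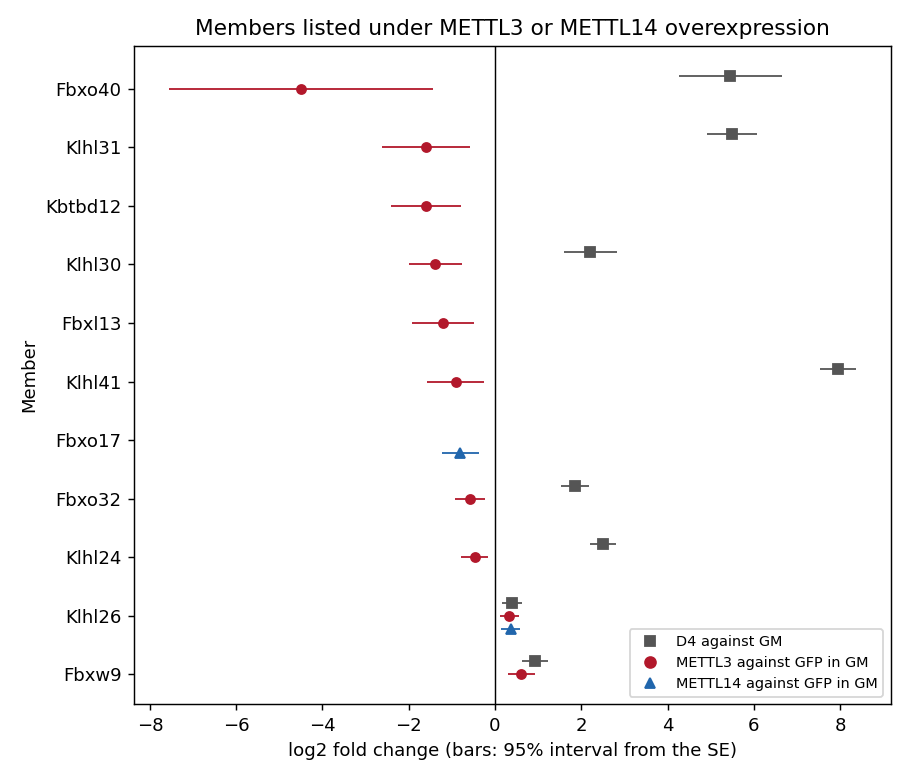
Log2 fold change (horizontal axis, bars for the 95% interval from the SE) of the 11 adaptors listed in the METTL3 or the METTL14 table, with the D4 value where listed (a missing symbol means not listed). Klhl26 has 3 symbols between 0.34 and 0.40, and Fbxo40 has the widest interval. All 3 comparisons share the GFP libraries in GM, so their values are not independent.

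The third comparison asked the same of METTL14. Of the 122 adaptor genes 2 (1.64%) were listed, beside 7.27% of the 15167 genes tested (3.24% higher and 4.03% lower) and 4.92% of annotated protein-coding genes. Fbxo17 (chr7:28716804-28738144, plus strand), of the sugar-binding F-box subfamily, was 1.74-fold lower (1.29 to 2.35, adjusted p = 0.00574) and was listed in no other table. Klhl26 (chr8:70450219-70476968, minus strand) was 1.29-fold higher (0.36 ± 0.11 on the log2 scale, adjusted p = 0.0234). It was thus the adaptor listed in all 3 tables, each time by less than 1.5-fold. All 3 comparisons share the GFP libraries in GM, so noise in that control moves the 3 values the same way. None of the 9 muscle kelch or 6 muscle F-box genes was listed in the METTL14 table. Since unlisted genes have no value, this does not show that the METTL3 and METTL14 lines differed, and that difference was not tested. Trim55 had a log2 fold change of -0.69, and Ube2d1 of -0.55, in the METTL14 line.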

How the data were processed

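RNA-seq of 8 C2C12 libraries (4 groups of 2, grouped by their titles) was used; the 4 MeRIP-seq libraries were not analysed here. Following the paper's methods, the authors aligned reads to GRCm38 with hisat2, counted them with featureCounts on Ensembl 102 and compared groups with DESeq2. Tool versions are not given in the sources used here. The deposited tables list genes at FDR ≤ 0.05. Among the authors' deposited columns, the mean normalized count is a signal taken over all libraries of the fit. The log2 fold change and SE are the authors' deposited values on the log2 scale, the Wald statistic is the authors' deposited score, and the p-value and adjusted p-value are the authors' deposited Wald p-values and their Benjamini-Hochberg adjustment. These columns are the authors' own comparisons, and nothing was refitted because the tables hold no value per library, and the depth per library is unknown here. Mean counts were the same in all 3 tables, so they cover all groups, D4 included, and do not give the level in GM.

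From these values, 95% intervals were computed as the log2 fold change ± 1.96 SE. The number of genes tested was recovered from the last rank of each adjustment, a step tested on simulated data. The adaptors and lists were chosen with earlier results of these data known. Genes named were all adaptors listed for METTL3 or METTL14, at D4 the 12 highest and 12 lowest by Wald statistic, and listed members of the muscle and cell-cycle lists, of which 1 gene is not reported here by name; Kbtbd6, Kbtbd7, Fbxw10, Fbxo11, Fbxo22, Fbxo16, Klhl8, Klhl13, Fbxo44 and Kbtbd3 were named after their values were seen. Positions, exon lengths and 50-base stretches shared with other genes came from GENCODE M21, where all 62 identifiers were found; promoter windows came from RefSeq for 48 of the 62. Those printed were of risen muscle adaptors and Fbxo5, chosen after their letters were seen. Alternatives were an adjusted p of at most 0.01, a change of 2-fold or more, a mean count of at least 100, a Bonferroni limit, and adding genes of the families under other symbols. Calculations used Python 3.11.15, pandas 2.3.3, NumPy 2.4.6 and matplotlib 3.10.9.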

Additional observations from a re-analysis of the deposited data

How the results depend on the processing

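No paired analysis was possible because the tables hold no value per library; for the same reason leaving out a replicate and another normalization were not run. The counts of adaptors below fell because fewer genes pass a stricter limit. At D4, where 59 adaptors were listed (39 higher, 20 lower), a limit of 2-fold left 27 (20 higher, 7 lower) and the Bonferroni limit left 24 (18 and 6). Of all genes tested at D4, these limits left 28.9% and 29.5%. In the METTL3 table, with 10 (2 higher, 8 lower), an adjusted p of at most 0.01 left 3 (1 higher, 2 lower: Fbxw9, Klhl30 and Kbtbd12). There the fold limit left 5 (0 and 5), and a mean count of at least 100 left 5 of the 8 lower ones. That mean is taken over all libraries, D4 included. With rises of 247-fold and 45.1-fold at D4, Klhl41 and Klhl31 must have stood below 100 in GFP cells in GM. They pass this limit through their D4 level, so it does not bear on their METTL3 values. The Bonferroni limit left 0 adaptors of the METTL3 table, and 565 (4.06%) of all genes tested. Of those genes, an adjusted p of at most 0.01 left 8.45% and the fold limit 4.04%. In the METTL14 table, with 2 (1 and 1), an adjusted p of at most 0.01 left 1 (0 higher, Fbxo17 lower), and the fold and Bonferroni limits left 0 (0 and 0). Of all genes tested for METTL14, these limits left 4.79%, 2.54% and 2.42%. Adding genes of the same families under other symbols kept each count within 1.5 times. The deposited log2 fold changes are fixed, so no direction could turn.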
